A study of Homo sapiens with 4 samples.

Results

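AP-1 is a family of dimeric transcription factors, and most of its genes belong to the immediate early genes, which cells transcribe within minutes of a growth or stress signal without new protein synthesis. The 10 genes described here are JUN, JUNB and JUND of the JUN family, FOS, FOSB, FOSL1 and FOSL2 of the FOS family, the stress-induced factor ATF3, and the immediate early genes EGR1 and IER2. They were chosen by symbol, and each matched 1 of the 32673 genes in the expression table. Their mRNA was compared between imatinib-sensitive TF1-BA cells and imatinib-resistant TF1-BAR cells, to ask how far each gene, and the makeup of each family, differed between the cell lines.

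TF1 is a human erythroleukaemia cell line that depends on cytokine for growth. TF1-BA cells are TF1 cells infected with a retrovirus that carries the BCR-ABL fusion, the tyrosine kinase of chronic myeloid leukaemia, and TF1-BAR cells were derived from them under continuous treatment with imatinib, an inhibitor of that kinase. Each line gave 2 RNA-seq libraries, called replicate 1 and replicate 2 below, each made from 10000000 cells. Both lines were grown in RPMI-1640 with serum and 2 ng/ml GM-CSF by the labels, while the study's methods give a higher concentration of GM-CSF, and 2 uM imatinib was added to the culture of TF1-BAR cells. No source states if imatinib was in the medium at the time of RNA extraction, so exposure to the drug and resistance cannot be told apart. The labels give the TF1-BAR libraries a vector title, and an effect of such a vector, if the cells carried it, cannot be told apart from the difference between the lines either. The comparison rests on a single resistant line, and the labels do not say that the replicates were separate cultures, so that p-values measure only the spread between these libraries, which may be technical.

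FOS proteins cannot pair with each other and bind DNA as partners of JUN proteins, while JUN proteins can also pair among themselves. The dimers bind the TPA response element (TRE), and dimers of JUN with ATF factors prefer the cAMP response element (CRE). Transcription of many immediate early genes is started by serum response factor (SRF) on a sequence named the CArG box, together with ETS factors of the ELK group that are phosphorylated by the ERK kinases, and the ERK pathway is among those that BCR-ABL activates. JUN and FOS promote entry into the cell cycle in many cells, whereas JUNB and JUND can oppose proliferation, and FOSL1 and FOSL2 lack the transactivation domain that FOS and FOSB carry at their C-terminus. EGR1 is a zinc finger factor with roles in growth control and monocytic differentiation.

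The sequences before the transcription start are shown for EGR1, IER2 and JUND, since EGR1 and IER2 were the most changed members outside the JUN and FOS families, in opposite directions, and JUND was the most abundant member in the TF1-BAR cells. They were taken from the RefSeq promoter table for GRCh38.p14, which held 10 promoters of 9 members, a pair of them of ATF3. FOSL1 is only named. The 250 bases upstream of the start are given from 5′ to 3′ on the strand of the gene, at chr5:138465229-138465478 on the plus strand for EGR1, chr19:13150161-13150410 on the plus strand for IER2 and chr19:18281623-18281872 on the minus strand for JUND. The starts used lay 11, 4 and 0 bases from the gene starts in the expression table. Capitals mark the motifs that were searched.
EGR1: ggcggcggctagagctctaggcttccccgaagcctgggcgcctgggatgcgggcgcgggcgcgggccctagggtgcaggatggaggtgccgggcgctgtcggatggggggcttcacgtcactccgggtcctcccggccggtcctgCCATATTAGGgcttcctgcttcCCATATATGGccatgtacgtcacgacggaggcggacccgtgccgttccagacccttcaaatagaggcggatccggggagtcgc
IER2: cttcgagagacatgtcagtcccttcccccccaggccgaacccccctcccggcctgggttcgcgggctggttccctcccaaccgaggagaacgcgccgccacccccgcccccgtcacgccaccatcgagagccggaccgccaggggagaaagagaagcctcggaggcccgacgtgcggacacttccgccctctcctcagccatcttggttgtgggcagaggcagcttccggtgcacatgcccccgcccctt
JUND: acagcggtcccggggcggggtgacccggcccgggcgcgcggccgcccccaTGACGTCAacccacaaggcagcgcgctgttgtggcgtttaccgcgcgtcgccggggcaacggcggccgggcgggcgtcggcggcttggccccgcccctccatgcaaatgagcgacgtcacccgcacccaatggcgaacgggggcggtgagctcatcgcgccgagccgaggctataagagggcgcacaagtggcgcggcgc

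In the EGR1 sequence, the capitals mark 2 CArG boxes, CCATATTAGG at -105 to -96 and CCATATATGG at -83 to -74 from the start. In the JUND sequence they mark a CRE, TGACGTCA, at -200 to -193. The IER2 sequence held none of the motifs searched. The search covered both strands of the window from 250 bases before to 50 bases after the start, for TGACGTCA as the CRE, TGACTCA or TGAGTCA as the TRE, and the CArG box, whose matches do not overlap. Among the members it found 1 further match, a TRE in FOSL2 at 5 to 11 bases after the start, on the plus strand of chr2:28392862-28392868. Of all 35116 promoters in the table, 1.85% held the CRE, 4.95% the TRE and 1.29% the CArG box. The GC content of the sequences shown was 68.4% for EGR1, 69.6% for IER2 and 74.8% for JUND. A match is a match of letters and no measurement of binding.

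Expression was deposited as FPKM, the number of fragments of a gene scaled to a length set for the gene and to the size of the library. That length need not be the length of a single transcript. The numbers of fragments behind the FPKM were recovered, and the libraries held 15465497 to 18042299 fragments each. The Pearson correlation of log2 values across genes was 0.983 for the pair of TF1-BA libraries, 0.979 for the pair of TF1-BAR libraries and 0.946 to 0.956 for libraries of different lines. Markers of TF1 cells were expressed, with all 10 of an erythroid and progenitor list at a mean FPKM of at least 0.5, and their summed FPKM was 333 to 334 in the TF1-BA cells and 417 to 447 in the TF1-BAR cells. The progenitor marker CD34 was at 25.8 and 24.7 FPKM in the TF1-BA libraries against 53.9 and 61.2 FPKM in the TF1-BAR libraries. KIT, CD33 and CSF2RB of the list also lay higher in each TF1-BAR library. CSF2RA lay lower (7.90 and 8.07 against 6.64 and 7.28 FPKM), and IL3RA overlapped (16.4 and 16.8 against 13.8 and 16.6 FPKM). The erythroid genes of the list had values in both directions, since TAL1 (22.0 and 21.7 against 34.4 and 40.6 FPKM) and EPOR (20.6 and 22.9 against 24.7 and 28.5 FPKM) lay higher in each TF1-BAR library, and KLF1 (57.8 and 64.7 against 45.4 and 51.1 FPKM) and GATA1 (75.4 and 74.7 against 65.9 and 70.6 FPKM) lay lower. Of 5 monocyte and macrophage markers, LYZ, ITGAM and CSF1R reached that level, with a summed FPKM of the list of 44.3 to 44.8 against 66.3 to 77.3, while CD14 and FCGR3A were at no more than 0.112 FPKM in any library. Of the T lymphocyte markers, CD3D was at 19.2 and 20.7 FPKM in the TF1-BA cells against 5.74 and 6.36 FPKM in the TF1-BAR cells, and CD3E was at no more than 0.0227 FPKM. Of 6 fibroblast, endothelial and epithelial markers only CDH5 reached it, with sums of 1.13 to 1.22 against 3.61 to 3.80, and KRT5 was at 0 in every library. The part of these shifts in the results below was not tested. In such bulk samples, fewer cells of a kind and less RNA per cell cannot be told apart.

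Of the members that could be tested, the most reduced in the TF1-BAR cells were JUN, FOSL1 and EGR1, at 0.542, 0.539 and 0.529 of their mean FPKM in the TF1-BA cells, and ATF3 fell by less, to 0.774 of it. IER2 rose, to 1.69 times its mean FPKM in the TF1-BA cells. JUNB, JUND, FOSB and FOSL2 did not pass the test, and FOS, at 0.459 of its mean FPKM in the TF1-BA cells, was expressed too weakly to be tested. The test was limma on log2(FPKM + 0.5) over the 15519 genes whose mean FPKM was 0.5 or more, with Benjamini-Hochberg adjustment over all of them, and 9 of the 10 members reached that level. A log2 fold change is the TF1-BAR mean minus the TF1-BA mean on that scale, and the added 0.5 FPKM makes it smaller than the ratio of FPKM for weakly expressed genes.

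With the criteria of a log2 fold change of 1 or more in size together with an adjusted p under 0.05, limma called 0 of the 9 members tested, against 4.75% of all genes tested. Of these members, 7 had an unadjusted p under 0.05, as did 42.2% of all genes tested, and limma voom on the recovered fragments also called 0. An adjusted p under 0.05 without the fold criterion was reached by 5 of the 9 members, against 26.9% of all genes tested. They were 1 member higher in the TF1-BAR cells, IER2, against 16.3% of all genes, and 4 members lower, JUN, FOSL1, EGR1 and ATF3, against 10.5% of all genes. The libraries of the lines did not overlap for 7 of the 9 members, 2 of them higher (IER2 and JUND) and 5 lower, and for 69.3% of all genes tested. The median log2 fold change of the members tested was -0.27 and that of all genes tested 0.066. Without TF1-BA replicate 1 or TF1-BA replicate 2, limma gave 0 members an adjusted p under 0.05 (5 in either case had an unadjusted p under 0.05), without TF1-BAR replicate 1 there were 3 and without TF1-BAR replicate 2 there were 2. In these fits 1 line is left with a single library, which limma assumed to vary like the others.

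**Figure D1:**
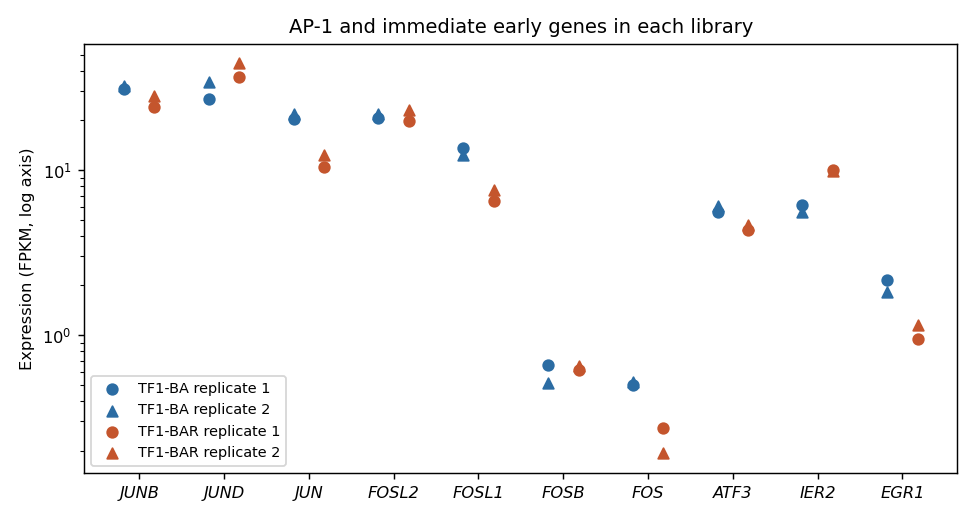
Expression of the 10 members in each library, in FPKM on a log axis. Circles are replicate 1 and triangles replicate 2 of the TF1-BA cells (blue) and TF1-BAR cells (orange). JUN, FOSL1, EGR1, ATF3, JUNB and FOS lay lower in every TF1-BAR library than in any TF1-BA library, IER2 and JUND lay higher, and the libraries of FOSB and FOSL2 overlapped.

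JUN encodes c-Jun, the best studied partner of FOS proteins and a target of the JNK kinases. The gene (ENSG00000177606) lies on the minus strand of chromosome 1 of GRCh38 from 58780788 to 58784327 and has 1 exon. Its expression was 20.3 and 21.7 FPKM in the TF1-BA libraries and 10.5 and 12.3 FPKM in the TF1-BAR libraries. Both TF1-BAR libraries were well below both TF1-BA libraries, and the replicates of a line were close to each other. JUN fell by 0.86 on the log2 scale (standard error, SE, 0.0991, 95% interval -1.11 to -0.60, adjusted p = 0.00860 from limma), from 21.0 ± 0.987 FPKM (mean ± SD, n = 2) to 11.4 ± 1.27 FPKM (n = 2). These values came from 1298 and 1189 fragments against 586 and 700. The adjusted p was 0.0698 without TF1-BA replicate 1 and 0.0780 without TF1-BA replicate 2, the highest of a range from 1.9e-05 over 15 alternatives, and 13 of them gave an adjusted p under 0.05.

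JUNB, a JUN protein that weakens the activity of c-Jun on many promoters and restrains myeloid proliferation, was at 31.0 and 32.1 FPKM in the TF1-BA libraries and 24.3 and 28.0 FPKM in the TF1-BAR libraries. The TF1-BAR values were lower in both libraries but also farther apart from each other. The log2 fold change was -0.27 (SE 0.0884, 95% interval -0.50 to -0.044), with an adjusted p of 0.0802 by limma, and it was -0.17 without TF1-BAR replicate 1. The adjusted p was 0.0398 to 0.311 over 15 alternatives, of which limma voom on the recovered fragments was the 1 under 0.05. Its gene (chromosome 19, 12791496 to 12793315, plus strand) overlaps HOOK2 on the other strand. The library kit was not stated to keep the strand, so reads in the overlap cannot be assigned, and HOOK2 had 9.57 and 9.79 FPKM against 11.2 and 12.0 FPKM.

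JUND, the JUN protein that is usually present without stimulation, was at 26.9 and 34.4 FPKM in the TF1-BA libraries and 36.5 and 44.2 FPKM in the TF1-BAR libraries. Both TF1-BAR libraries were higher, but the replicates of each line lay farther apart than the nearest libraries of different lines. The log2 fold change was 0.40 (SE 0.152, 95% interval 0.0040 to 0.79) with an adjusted p of 0.116 by limma, and 0.018 to 0.417 over 15 alternatives, of which 2 were under 0.05. It was 0.22 without TF1-BA replicate 1 and 0.26 without TF1-BAR replicate 2. The gene lies on the minus strand of chromosome 19 from 18279760 to 18281622, and the CRE in its upstream sequence is the one shown above.

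FOS, the founding member of its family and a gene that is nearly silent in unstimulated cells, was at the limit of what these libraries measured. Its expression was 0.496 and 0.519 FPKM in the TF1-BA libraries and 0.274 and 0.192 FPKM in the TF1-BAR libraries, from 29 and 26 fragments against 14 and 10. The TF1-BAR libraries were the lower ones, but the mean over the 4 libraries was under the filter and FOS was not tested. The ratio of its fragments, scaled by library size, was 0.459 in TF1-BAR over TF1-BA, with an exact 95% interval of 0.272 to 0.754 that covers counting error only. In a fit with no filter the log2 fold change was -0.46 (SE 0.133) with an adjusted p of 0.143 from limma. The gene (ENSG00000170345) lies on the plus strand of chromosome 14 from 75278774 to 75282230.

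FOSB, a close relative of FOS, was also weakly expressed, with 0.659 and 0.512 FPKM in the TF1-BA libraries and 0.617 and 0.650 FPKM in the TF1-BAR libraries. Both TF1-BAR values lay between the TF1-BA values. The log2 fold change was 0.065 (SE 0.189, 95% interval -0.42 to 0.55, adjusted p = 0.820 from limma), which does not show that the lines were equal, and it turned to -0.087 with quantile normalization and to -0.032 without TF1-BA replicate 2. It rests on 66 and 44 fragments against 54 and 58. The gene lies on the plus strand of chromosome 19 from 45467995 to 45475179 and overlaps ERCC1 on the other strand, which had 9.56 and 11.2 FPKM against 12.8 and 13.2 FPKM. As for JUNB, reads in the overlap cannot be assigned, and the part of ERCC1 reads in the low FOSB values was not tested.

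FOSL1, which encodes FRA1 and is transcribed in response to lasting ERK signalling, showed nearly the same reduction as JUN. Its expression was 13.7 and 12.4 FPKM in the TF1-BA libraries and 6.49 and 7.58 FPKM in the TF1-BAR libraries. The lines were far apart relative to their replicates. FOSL1 fell by 0.85 on the log2 scale (SE 0.105, 95% interval -1.12 to -0.58, adjusted p = 0.00960 from limma), from 13.0 ± 0.907 FPKM (mean ± SD, n = 2) to 7.04 ± 0.773 FPKM (n = 2). The adjusted p was 0.0821 without TF1-BA replicate 1 and 0.0711 without TF1-BA replicate 2, within a range over 15 alternatives of 0.000128 to 0.0821, and 13 of them gave an adjusted p under 0.05. The gene (ENSG00000175592) lies on the minus strand of chromosome 11 from 65892049 to 65900573.

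FOSL2, which encodes FRA2, was the most abundant FOS family member in every library, with 20.5 and 22.0 FPKM in the TF1-BA libraries and 19.7 and 23.0 FPKM in the TF1-BAR libraries. The lowest and the highest value were both from TF1-BAR cells. Its log2 fold change of 0.0030 (SE 0.0968) had an adjusted p of 0.985 from limma, with a 95% interval of -0.25 to 0.25 that leaves room for a change of that size in either direction, and it turned negative with upper-quartile scaling (-0.023) and quantile normalization (-0.0082). At 2223 to 2651 fragments per library, depth limited this value less than that of FOS or FOSB. The gene lies on the plus strand of chromosome 2 from 28392448 to 28417312, where the table also lists AC104695.3 and FLJ31356, each at no more than 0.655 FPKM.

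ATF3, a bZIP factor induced by stress that can pair with JUN proteins and often represses, was at 5.58 and 6.05 FPKM in the TF1-BA libraries and 4.35 and 4.65 FPKM in the TF1-BAR libraries. The lines did not overlap, and each line's replicates were close. ATF3 fell by 0.34 on the log2 scale (SE 0.0888, 95% interval -0.57 to -0.11, adjusted p = 0.0488 from limma), close to the threshold. The adjusted p was 0.179 without TF1-BA replicate 1, 0.270 without TF1-BA replicate 2, 0.120 without TF1-BAR replicate 1, and 0.102 when TF1-BAR replicate 2 was left out, within a range of 0.0233 to 0.270 over 15 alternatives, of which 7 were under 0.05. The gene (ENSG00000162772) lies on the plus strand of chromosome 1 from 212565334 to 212620777.

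EGR1 was at 2.15 and 1.81 FPKM in the TF1-BA libraries and 0.950 and 1.15 FPKM in the TF1-BAR libraries, from 122 and 88 fragments against 47 and 58. The TF1-BAR libraries were lower without overlap, at modest depth. EGR1 fell by 0.68 on the log2 scale (SE 0.147, 95% interval -1.06 to -0.30, adjusted p = 0.0307 from limma). The ratio of fragments scaled by library size was 0.526 in TF1-BAR over TF1-BA, with an exact 95% interval of 0.412 to 0.668 for counting error only. The adjusted p was 0.168 without TF1-BA replicate 1, 0.112 without TF1-BA replicate 2, 0.0865 without TF1-BAR replicate 1, and 0.0780 when TF1-BAR replicate 2 was left out, within a range of 0.00379 to 0.168 over 15 alternatives, of which 9 were under 0.05. The gene (ENSG00000120738) lies on the plus strand of chromosome 5 from 138465490 to 138469315, just downstream of the pair of CArG boxes shown above.

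IER2, an immediate early gene whose product is found in the nucleus, went the other way. Its expression was 6.17 and 5.56 FPKM in the TF1-BA libraries and 10.1 and 9.80 FPKM in the TF1-BAR libraries. The replicates were close, and both TF1-BAR libraries were higher. IER2 rose by 0.71 on the log2 scale (SE 0.0850, 95% interval 0.50 to 0.93, adjusted p = 0.00895 from limma), a 1.69-fold higher mean FPKM. The adjusted p was 0.0673 without TF1-BA replicate 1, 0.0818 without TF1-BA replicate 2 and 0.0521 without TF1-BAR replicate 2, within a range of 0.000163 to 0.0818 over 15 alternatives, of which 12 were under 0.05. The gene (ENSG00000160888) lies on the plus strand of chromosome 19 from 13150415 to 13154908.

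**Figure D2:**
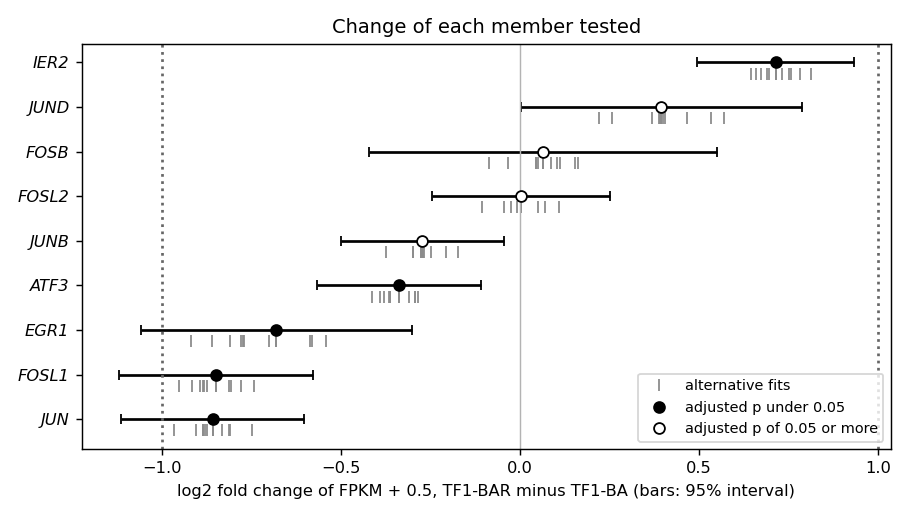
Log2 fold change of FPKM + 0.5, TF1-BAR minus TF1-BA, of the 9 members tested. Points are the limma estimates with their 95% intervals, filled where the adjusted p was under 0.05, grey ticks are the alternative fits, and dotted lines mark the fold criterion at -1 and 1. The point estimates of JUN (-0.86), FOSL1 (-0.85), EGR1 (-0.68), ATF3 (-0.34) and IER2 (0.71) lie inside the fold criterion, and the ticks of FOSB and FOSL2 lie on both sides of 0.

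The levels of the members were ordered within a line by FPKM, so the order rests on the length set for each gene. That length was 4040 bases for ATF3 and 3072 bases for IER2, against spliced lengths of 1940 and 2110 bases for a single transcript. Whether the order holds at transcript lengths was not tested. In the TF1-BA cells the order from high to low was JUNB, JUND, FOSL2, JUN, FOSL1, IER2, ATF3, EGR1, FOSB and FOS. The libraries overlapped between JUNB and JUND, between FOSL2 and JUN, between IER2 and ATF3 and between FOSB and FOS, so these neighbours were not separated by their spread. In the TF1-BAR cells JUND came first, ahead of JUNB, and IER2 moved ahead of FOSL1, with no overlap between any neighbours at the lengths set. JUND had a mean of 40.3 FPKM there and FOS 0.233 FPKM. Of the 9 members tested, 7 lay above the median level of all genes tested, a mean of 4.52 FPKM, and EGR1 and FOSB lay below it.

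In the TF1-BAR cells, JUN and FOSL1 made up a smaller share of the summed FPKM of their families and JUND and FOSL2 a larger one. The share of each of the 7 members did not overlap between the lines on this scale, and neither did the level of 69.3% of all genes tested. With fragments not scaled by length, JUNB made up 31.6% and 29.3% of its family in the TF1-BA libraries against 29.6% and 28.8% in the TF1-BAR libraries, and FOSB 2.05% and 1.54% against 2.17% and 1.97%, so that both of these shares overlapped. Summed over JUN, JUNB and JUND, expression was 78.2 and 88.2 FPKM in the TF1-BA libraries and 71.2 and 84.5 FPKM in the TF1-BAR libraries, which overlap (two-sided exact permutation test, p = 0.667). JUN made up 26.0% and 24.6% of this sum in the TF1-BA libraries, against 14.7% and 14.6% in the TF1-BAR libraries. JUND made up 34.4% and 39.0% of it in the TF1-BA libraries, against 51.2% and 52.3% in the TF1-BAR libraries. JUNB held 39.6% and 36.4% against 34.1% and 33.1%, a difference of -4.45 percentage points that was -2.84 without TF1-BA replicate 1. JUND was thus the largest part in both TF1-BAR libraries, with a smaller spread between replicates than in the TF1-BA cells. The ratio of JUN to JUND was 0.756 and 0.632 in the TF1-BA libraries, against 0.288 and 0.278 in the TF1-BAR libraries. For these shares and this ratio the lines did not overlap, and the exact permutation test gave p = 0.333, the smallest p that 2 against 2 libraries allow.

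In the FOS family the sum was 35.4 and 35.4 FPKM in the TF1-BA libraries and 27.1 and 31.4 FPKM in the TF1-BAR libraries. FOSL2 made up 58.0% and 62.0% of it in the TF1-BA libraries, against 72.8% and 73.2% in the TF1-BAR libraries. FOSL1 made up 38.7% and 35.1% in the TF1-BA libraries, against 24.0% and 24.2% in the TF1-BAR libraries. With fragments not scaled by length the differences were smaller, with FOSL1 at 14.5% and 12.6% against 7.77% and 7.82% and FOSL2 at 82.5% and 84.9% against 89.5% and 89.9%, again with no overlap. The ratio of FOSL2 to FOSL1 accordingly went from 1.50 and 1.77 to 3.04 and 3.03, while the level of FOSL2 itself overlapped between the lines. FOS and FOSB together were a small part, with FOS at 0.612% to 1.47% and FOSB at 1.45% to 2.28% over all libraries. The difference in the FOSB share was 0.519 percentage points, and 0.312 without TF1-BA replicate 2. The summed JUN family was 2.21 and 2.49 times the summed FOS family in the TF1-BA libraries, against 2.63 and 2.69 times in the TF1-BAR libraries. Apart from the level of FOSL2, none of these values on the FPKM scale overlapped between the lines, and for each the two-sided exact permutation test gave p = 0.333, again the smallest possible.

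**Figure D3:**
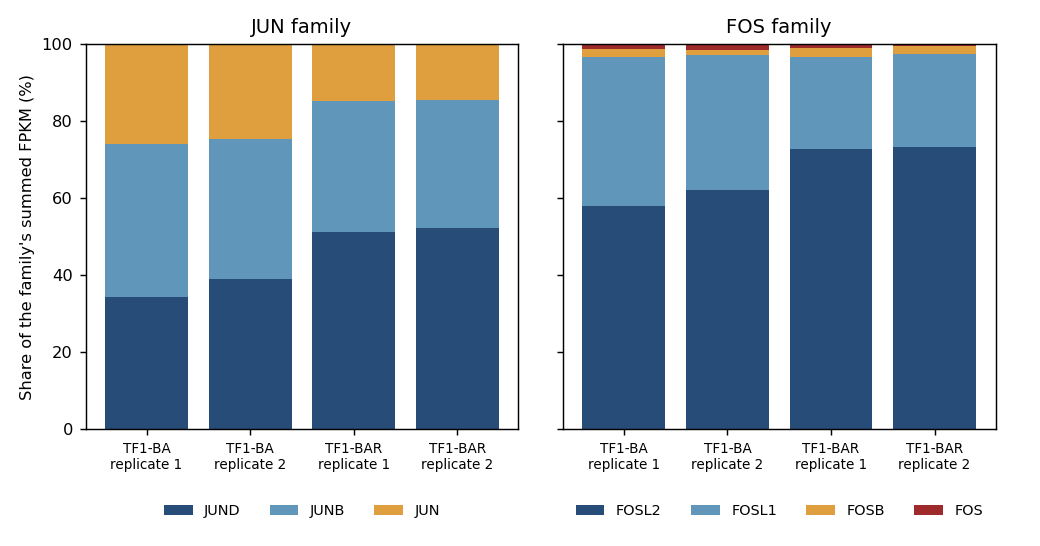
Share of each member in the summed FPKM of the JUN family (left) and the FOS family (right), in percent, 1 bar per library. JUND takes 51.2% and 52.3% of the JUN family in the TF1-BAR libraries against 34.4% and 39.0% in the TF1-BA libraries, and FOSL2 takes 72.8% and 73.2% of the FOS family against 58.0% and 62.0%.

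The members also shared features of their transcripts that had no part in their choice. In the GENCODE 44 annotation, all 10 had a MANE Select transcript with at most 4 exons, as did 19.6% of the 11559 genes tested that have such a transcript with a 3′ UTR. JUN, JUNB and JUND consist of 1 exon, as did 1.70% of those genes. The median spliced length was 2107 bases for the members and 3286 bases for those genes. The pentamer ATTTA, the core of the AU-rich elements that shorten the life of many immediate early transcripts, was found in the 3′ UTR of 9 members, all but IER2, and of 72.4% of those genes. Per kilobase of 3′ UTR its median was 1.62 in the members and 1.67 in those genes, which shows no excess of it in the members. The longer element TTATTTATT was found in FOS and FOSL2, and in 9.47% of those genes. FOS held 5 ATTTA in 806 bases, the highest density among the members, and FOSL2 held 9 in 4869 bases.

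Of 12 other bZIP proteins that can pair with JUN or FOS proteins, all tested, 4 were higher and 1 was lower with an adjusted p under 0.05. That is 41.7% of them, against 26.9% of all genes tested, of which 16.3% were higher and 10.5% lower, and their median log2 fold change was 0.26, against 0.066 for all genes tested. CREB5, a relative of ATF2, rose from 1.74 and 1.77 to 3.83 and 3.83 FPKM (log2 fold change 0.94, adjusted p = 0.00667 from limma). BATF2 and BATF, which lack a transactivation domain and can hold JUN proteins in dimers, rose by 0.88 (adjusted p = 0.0157 from limma) and 0.67 (adjusted p = 0.0495 from limma) on the log2 scale, BATF from only 30 and 17 fragments to 40 and 38. JDP2, a repressor that pairs with JUN, fell by 0.34 (adjusted p = 0.0269 from limma) from 11.7 and 11.7 to 9.27 and 8.99 FPKM. JDP2 thus moved in the direction of JUN, and the other 4 genes that passed moved against it. The other 7 genes, ATF2 and ATF7 among them, did not pass the test. The count of 5 was 0 without TF1-BA replicate 1, 0 without TF1-BA replicate 2 and 1 without TF1-BAR replicate 2.

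Among other immediate early genes, the share that passed the test was near that of all genes. Of 36 listed genes, 33 were in the table, 11 of these were below the filter and 22 were tested, of which 5 were higher and 1 was lower with an adjusted p under 0.05, or 27.3% against 26.9% of all genes tested. By direction, 16.3% of all genes tested were higher and 10.5% lower. The median log2 fold change of the list was 0.078. PLK2, a polo-like kinase induced by serum and by p53, had the largest change and was called, from 3.73 and 3.51 to 13.7 and 17.5 FPKM (log2 fold change 1.96, SE 0.133, adjusted p = 0.00409 from limma). CSRNP1 rose by 0.61, BTG2, an inhibitor of proliferation, by 0.60 and PLK3 by 0.55 on the log2 scale. MYC, which was outside the rule for naming genes and is named because the count is small, rose by 0.45, from 198 and 168 to 242 and 256 FPKM. MCL1, an inhibitor of apoptosis with a short-lived transcript, fell by 0.56, from 60.4 and 57.6 to 41.2 and 38.6 FPKM. EGR2, EGR3 and EGR4, the relatives of EGR1, were among those below the filter, with at most 3 fragments in any library, so that EGR1 was the measurable member of its family. The count of 6 was 1 without TF1-BA replicate 1, 0 without TF1-BA replicate 2 and 2 without TF1-BAR replicate 2, and the adjusted p of PLK2 was 0.0527 without TF1-BA replicate 2, the highest of a range from 1.56e-07 over 15 alternatives.

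The kinases and factors upstream of the members, which start their transcription, passed the test about as often as genes in general. Of 22 genes, all tested, 1 was higher and 4 were lower with an adjusted p under 0.05, or 22.7% against 26.9% of all genes tested, with a median log2 fold change of -0.018. By direction, 16.3% of all genes tested were higher and 10.5% lower. MAPK8, which encodes the kinase JNK1 of c-Jun, fell by 0.75 on the log2 scale (SE 0.0854, adjusted p = 0.00825 from limma), from 8.38 and 7.94 to 4.84 and 4.45 FPKM. MAPK8 lies on chromosome 10, where the median log2 fold change of the genes tested was -0.35. RPS6KA5, which encodes the kinase MSK1 of CREB and histone H3, fell by 0.60, and MAP2K1, which encodes the ERK kinase MEK1, fell by 0.49, from 31.0 and 29.7 to 20.6 and 22.3 FPKM. ELK1, an ETS partner of SRF, fell by 0.28, and MAPK14, which encodes p38 alpha, rose by 0.42. SRF itself had a log2 fold change of 0.24 (adjusted p = 0.113 from limma), and the ERK gene MAPK3 had 0.058 (adjusted p = 0.602 from limma). The count of 5 was 0 without TF1-BA replicate 1, 0 without TF1-BA replicate 2, 3 without TF1-BAR replicate 1, and 2 when TF1-BAR replicate 2 was left out.

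Of 13 listed genes that damp the pathway 12 were tested, and 4 had an adjusted p under 0.05, all of them higher. That is 33.3%, against 26.9% of all genes tested in either direction and 16.3% of them higher. The median log2 fold change of the list was 0.21. DUSP4, a nuclear phosphatase of ERK and itself an ERK target, was called, from 0.542 and 0.588 to 1.97 and 2.79 FPKM and from 71 and 66 to 225 and 326 fragments (log2 fold change 1.42, SE 0.186, adjusted p = 0.0106 from limma). SPRY1, an inhibitor of receptor signalling to RAS, rose by 0.56, NAB2, a corepressor that binds EGR1, by 0.37 and SPRED2 by 0.29. NAB2 was at 4.81 and 4.90 FPKM in the TF1-BA libraries and 6.53 and 6.26 FPKM in the TF1-BAR libraries, opposite to EGR1. The count of 4 was 0 without TF1-BA replicate 1, TF1-BA replicate 2 or TF1-BAR replicate 2, and it was 2 when TF1-BAR replicate 1 was left out. The adjusted p of DUSP4 was 0.0753, 0.0749 and 0.0506 in the first 3 of these fits, within a range of 8.73e-06 to 0.0753 over 15 alternatives.

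Genes that textbooks name as AP-1 targets went in both directions. Of 15 listed genes 12 were in the table and 10 were tested, and 5 were higher and 4 lower with an adjusted p under 0.05, or 90.0% against 26.9% of all genes tested, with a median log2 fold change of 0.20. CXCL8, the chemokine interleukin-8, was called and fell by 1.49 on the log2 scale (SE 0.178, adjusted p = 0.00901 from limma), from 5.31 and 7.28 to 2.12 and 1.70 FPKM. HMOX1, the heme oxygenase of the oxidative stress response, was called and fell by 1.17 (SE 0.200, adjusted p = 0.0185 from limma), from 38.9 and 58.4 to 19.8 and 22.2 FPKM. TIMP1, an inhibitor of matrix proteases, fell by 0.61 and PLAU, the urokinase, by 0.39, the latter on chromosome 10. CD44, an adhesion receptor, rose by 0.86 from 29.0 and 29.5 to 52.3 and 54.6 FPKM. MMP9, a gelatinase, rose by 0.63 and CCND1, the cyclin D1 gene, by 0.56. MMP9 lies on chromosome 20, where the median log2 fold change of the genes tested was 0.39. PLAUR, the receptor of urokinase, was outside the rule for naming genes and rose by 0.48. VIM was the 1 gene tested that did not pass, with a log2 fold change of -0.087. All these genes have other regulators, and the list was not tested as a readout of AP-1. As with the other lists, its genes were chosen with earlier results of these data known, so the share of 90.0% is not independent of these data. The count of 9 was 1 without TF1-BA replicate 1, 0 without TF1-BA replicate 2 and 2 without TF1-BAR replicate 2. Over the 4 fits that each leave out a library, the adjusted p was 0.0353 to 0.0638 for CXCL8 and 0.0489 to 0.0853 for HMOX1.

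**Figure D4:**
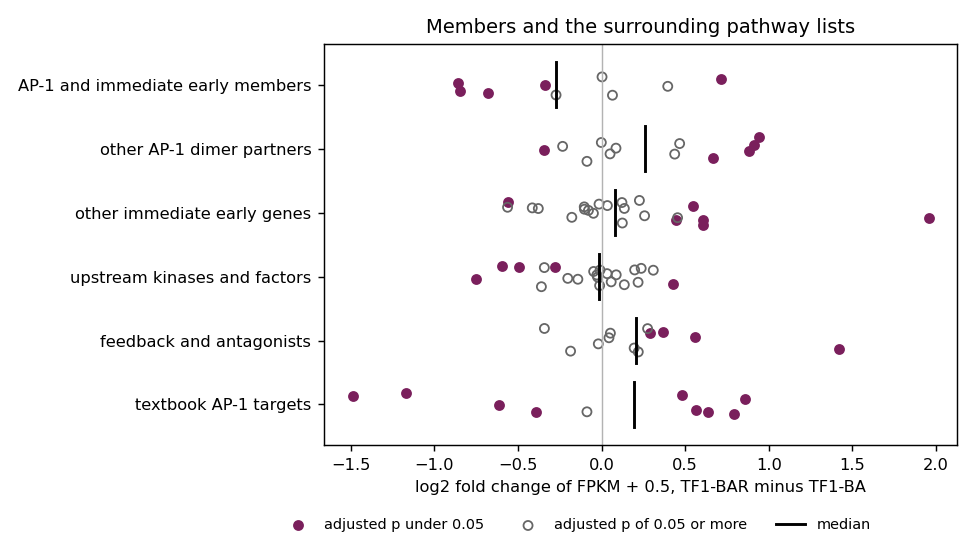
Log2 fold change of FPKM + 0.5, TF1-BAR minus TF1-BA, of the members and of 5 lists of related genes. Each point is a gene tested, filled where its adjusted p was under 0.05, the black bars are medians, and the vertical position within a list is spread for legibility. The medians are -0.27 for the members, 0.26 for the dimer partners, 0.078 for other immediate early genes, -0.018 for upstream genes, 0.21 for feedback genes and 0.20 for targets.

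Of the 29 genes of these 5 lists with an adjusted p under 0.05, 0 stayed under 0.05 by limma in all 4 fits that leave out a library, and all 29 kept their direction in every alternative.

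The changes of the members were also set beside those of their neighbours on the chromosome. Within 500 kb of JUN, 5 genes were tested, of which 2 had an adjusted p under 0.05, both lower, with a median log2 fold change of -0.16. Within 500 kb of FOSL1, 7 of 41 genes were higher and 3 were lower by this test, with a median of 0.12. Near EGR1, 2 of 14 genes had an adjusted p under 0.05, both lower, with a median of 0.13, and near ATF3, 3 of 12 did, all lower, with a median of -0.14. Near IER2, 4 of 33 were higher and 3 lower, with a median of -0.022. Of all genes tested, 26.9% had an adjusted p under 0.05, and the median log2 fold change over all genes tested was 0.066. The 5 genes whose centred log2 values over the 4 libraries lay nearest to those of JUN were AC123912.4, HLA-DOA, VSIR, LINC02193 and F2RL3, at Euclidean distances of 0.0467 to 0.0766. For FOSL1 they were AL355870.1, MAOB, LCA5, GRHL1 and AP001033.1, at 0.0423 to 0.0892. With 4 libraries this likeness says little more than that these genes fell by a similar amount.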

How the data were processed

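RNA of TF1-BA and TF1-BAR cells was sequenced as 150-bp paired-end reads, 2 libraries per line. The authors mapped the reads to GRCh38 and deposited FPKM per gene and library. TopHat2 2.0.13, Cufflinks 2.2.0 and Cuffdiff 2.2.0 are named in the submitters' processing notes, and the release of the gene annotation was not given in the sources used here. Samples were assigned by their labels, and columns by their names. The members and lists were chosen with earlier results of these data known.

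FPKM were compared as log2(FPKM + 0.5) with limma 3.58.1 in R 4.3.3 (lmFit, eBayes with trend) over genes whose mean FPKM was 0.5 or more, with Benjamini-Hochberg adjustment. Fragments were recovered by a search for library sizes and gene lengths that turn FPKM into whole numbers (within 0.005), which was possible for all 30853 genes above 0, at the annotated length for 14560, at the length of the gene's span for 857 and at a fitted length for 15436. With wrong library sizes, 0 of 102 genes were whole. Fragment intervals cover counting error only. Same-line replicates showed more than sampling noise between their fragments (chi-square per degree of freedom 4.22 in TF1-BA and 7.05 in TF1-BAR) and were kept as separate libraries. The test was also run on simulated data, and the outcome is not reported here. Alternatives were 0.1 or 1 FPKM added, a filter at 1 FPKM or none, TPM, upper-quartile or quantile scaling, robust or untrended eBayes, a replicate block, limma voom on fragments, and leaving out each library. For family shares, they were fragments not scaled by length and leaving out each library.

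Named were the 10 members, up to 4 genes in each direction per list with the largest change among those with an adjusted p under 0.05, and the 5 genes with the pattern nearest to that of JUN and of FOSL1. Genes outside this rule are marked, or given as members of a family or list beside their count. KLF4, CCN2, NPAS4, MMP1, MMP3, IL6 and MS4A1 were not analysed here. Some genes of the lists entered the counts and medians, and their own values are not reported here. Protein sequences were not used here.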

Additional observations from a re-analysis of the deposited data

How the results depend on the processing

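There were 2 libraries per line, and the values of FOS, FOSB and EGR1 rested on only 10 to 122 fragments per library. Of 134 recomputed member log2 fold changes, 104 kept their direction and their side of the adjusted p threshold, 21 lost it, 3 gained it and 6 reversed. The reversals were of FOSB, -0.087 with quantile normalization and -0.032 without TF1-BA replicate 2 (-0.032 to 0.16 over left-out libraries), and of FOSL2, -0.023 with upper-quartile scaling, -0.0082 with quantile normalization, -0.044 without TF1-BA replicate 1 and -0.105 without TF1-BAR replicate 2 (-0.105 to 0.11 over left-out libraries). Of 435 recomputed list gene values, 309 kept their side of the threshold, 126 lost it and 0 reversed. 0 members were called under any alternative. The 5 members with an adjusted p under 0.05 became 3 without the filter and 0 to 3 when a library was left out, 7 with limma voom and 4 with the replicate block. The replicate numbers only share a number, since deviations of same-numbered libraries correlated at 0.0646. With the replicate block the adjusted p was 0.0514 for ATF3, 0.0510 for EGR1 and 0.0248 for JUND. The 737 genes called became 487 with 1 FPKM added, 1140 with limma voom, and 42 to 783 when a library was left out. Without the filter, the counts with an adjusted p under 0.05 were 1 for dimer partners, 2 for other immediate early genes, 2 for upstream genes, 0 for feedback genes and 2 for targets. Without the eBayes trend they were 3 for dimer partners and 3 for upstream genes, with limma voom 8 for upstream genes, and with quantile normalization 2 for feedback genes. When a library was left out they ranged from 0 to 4 for dimer partners, 0 to 5 for other immediate early genes, 0 to 3 for upstream genes, 0 to 2 for feedback genes and 0 to 6 for targets. Computed from fragments not scaled by length, the difference in family share, TF1-BAR minus TF1-BA, was -14.7 percentage points for JUN, -1.29 for JUNB, 0.277 for FOSB, -5.78 for FOSL1 and 5.96 for FOSL2, in place of -10.7, -4.45, 0.519, -12.8 and 12.9. Quantile normalization moved the median of all genes from 0.066 to -0.0038 and rescaling to TPM moved it to 0.137. The cause of these differences was not tested.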
